A study of Mus musculus with 4 samples.

Results

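Of the 1696 genes in either of the study's deposited lists of changed genes, 7 keratin genes are described here, chosen by name from the rows for Krt1, Krt5, Krt6a, Krt14, Krt16, Krt78 and Krt83. The ovary list, of 854 genes, held 5 of them, and the uterus list, of 903 genes, held the other 2. All 7 were lower in hypoxia, a direction shared by 49.3% of the ovary list and 45.6% of the uterus list, and nothing is read from that contrast. None was in both lists (0 of the 61 shared genes). The members were picked with these fold changes in view, so their values are a description and no test was made on them.

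The study compared tissue of pregnant mice at embryonic day 3.5, just before implantation, after low oxygen (the treatment given as "Hypoxic") or normal oxygen ("Ctrl"). The 4 groups were hypoxic ovary, normoxic ovary, hypoxic uterus and normoxic uterus. Low oxygen was given 72 hours after fertilization by the submitters' design text, and all mice were pregnant; their strain and age and the oxygen level are not stated there. Each group was 1 library of polyadenylated RNA from 3 pooled samples, so no spread between animals can be given.

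Keratins are the intermediate filament proteins of epithelial cells. Each filament is built from a type I keratin paired with a type II keratin, and epithelia are told apart by the pairs they make. Dividing basal cells of stratified squamous epithelium, such as epidermis or vagina, make Krt5 with Krt14; cells that leave the basal layer of epidermis make Krt1 with Krt10; stressed or wounded epithelium makes Krt6a with Krt16; and the hair shaft has its own set. The simple epithelia that line the uterus and cover the ovary are known instead for Krt7, Krt8, Krt18 and Krt19.

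The deposited values are log2 fold changes, and nothing in the tables says which condition is the numerator. A negative value is read here as lower in hypoxia, and every direction below rests on that reading. Each fold change equals a ratio of whole numbers, called terms here, times 1 factor shared by all genes of the tissue. The terms are read as read counts plus 1, which no source states. Terms are in lowest form, so the real counts may be larger by a common multiple. The shared factor was itself chosen as the reading with the smallest terms, and the next readings tried give other terms. Krt14, for example, would have 320 in the hypoxic ovary and 2103 in the normoxic ovary, or 64 in the hypoxic ovary and 701 in the normoxic ovary. Counting intervals at 95% (Clopper-Pearson) were computed from the terms less 1; they cover counting error of the 2 libraries of a tissue and say nothing of the spread between animals.

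Some genes of this family share near-identical stretches of sequence, which the choice of genes did not use. To let this be seen, 3 pairs of coding stretches on GRCm38 are shown, each placed at the longest run its pair shares. They do not stand for the whole genes. Over the 11 pairs of members of the same type, coding identity had a median of 70.5%, from 65.5% to 86.4%. Krt14 and Krt16, both listed in the ovary, share a run of 134 bases. The stretches of 90 bases below cover the end of that run and what follows it, on the minus strand, at chr11:100206987-100207076 for Krt14 and chr11:100248446-100248535 for Krt16. Capitals mark the 4 bases that differ.
Krt14: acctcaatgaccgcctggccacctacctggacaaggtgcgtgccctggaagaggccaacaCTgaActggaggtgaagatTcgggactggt
Krt16: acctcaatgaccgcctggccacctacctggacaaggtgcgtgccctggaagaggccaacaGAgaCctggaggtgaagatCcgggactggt

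Krt6a and its neighbour Krt6b, which was in neither list, share a run of 280 coding bases. The stretches at chr15:101693906-101693995 for Krt6a and chr15:101679881-101679970 for Krt6b, minus strand, differ at the 2 bases in capitals.
Krt6a: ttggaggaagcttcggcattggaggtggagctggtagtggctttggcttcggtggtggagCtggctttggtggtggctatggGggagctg
Krt6b: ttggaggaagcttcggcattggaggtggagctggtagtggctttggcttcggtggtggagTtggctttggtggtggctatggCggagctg

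Krt83 and the unlisted hair keratin Krt81 share a run of 143 bases. The stretches are spliced from within chr15:101487135-101487500 for Krt83 and chr15:101460286-101460651 for Krt81, minus strand, and differ at 1 base.
Krt83: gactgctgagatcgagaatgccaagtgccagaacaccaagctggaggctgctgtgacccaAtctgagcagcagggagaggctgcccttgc
Krt81: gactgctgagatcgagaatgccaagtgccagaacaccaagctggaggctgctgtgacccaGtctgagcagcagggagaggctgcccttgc

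The closest keratin by coding sequence was sought only where the alignment covered at least 80% of both sequences. Krt78, with 3204 coding bases, had no keratin that met this. The closest to Krt6a was Krt6b, at 97.8% identity, and the closest to Krt83 was Krt81, at 94.0%. Krt14 and Krt16 were each other's closest, at 86.4%. Krt5 was 80.0% identical to Krt6b, and Krt1 was 72.0% identical to Krt6b. Of the 50-base stretches of each GENCODE transcript, 62.0% of those of Krt6a were also found, on either strand, in a transcript of another gene. That share was 37.6% for Krt16, 23.2% for Krt83, 14.4% for Krt14 and 12.2% for Krt5, and no stretch (0) of Krt1 or Krt78 was found elsewhere. At 100 bases the shares were 47.5% for Krt6a, 24.3% for Krt16, 5.43% for Krt83, 2.88% for Krt14 and 3.81% for Krt5. These shares include the genes annotated over Krt5 and Krt6a. By the 50-base shares the main other source was Krt6b for Krt6a, the unprocessed pseudogene Gm11597 for Krt16, Krt86 for Krt83, Krt16 for Krt14 and Krt6a for Krt5. The labels give neither the read length nor the handling of reads that fit several genes. Reads from the shared stretches of Krt6a, Krt16 and Krt83, and by smaller shares of Krt14 and Krt5, could have been split or dropped in counting. The values of these genes are uncertain in that sense, and how many reads it concerns is not known.

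**Figure D1:**
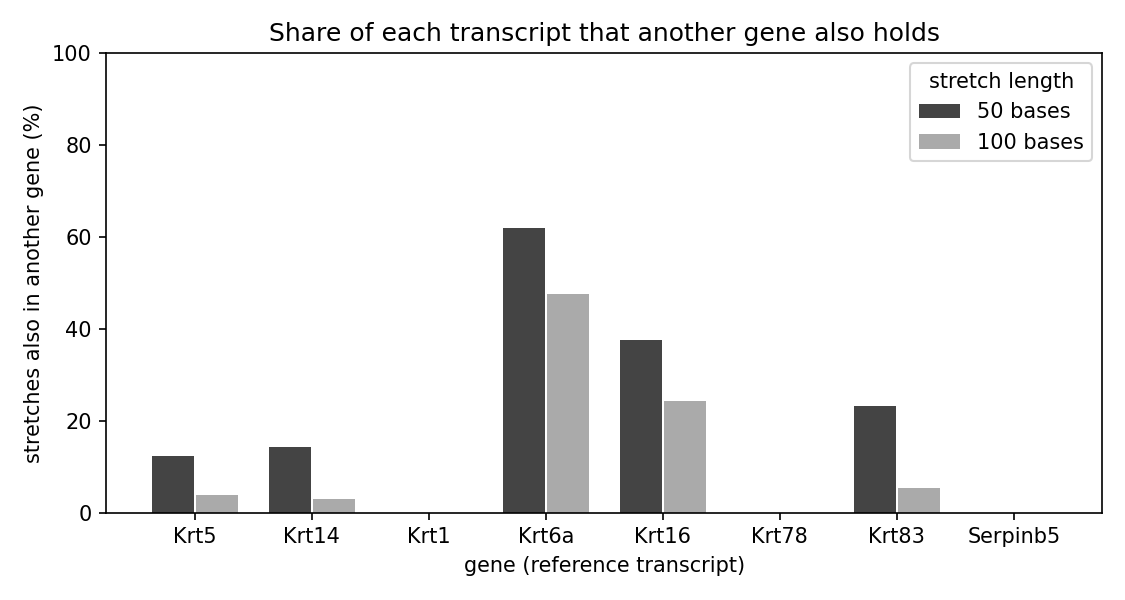
Share of each gene's reference transcript, in percent of all stretches of 50 bases (dark bars) or 100 bases (light bars), that also occurs in another gene on either strand. Krt6a has the highest bars, at 62.0% and 47.5%, and Krt1, Krt78 and Serpinb5 have none (0).

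In the ovary both basal keratins were lower in hypoxia and had the largest terms of the 7 genes. Krt14, the type I keratin of basal cells, had terms of 80 in the hypoxic ovary and 701 in the normoxic ovary. Its log2 fold change in the authors' deposited table was -3.20, with a counting interval of -3.57 to -2.88. Krt5, its type II partner, had terms of 87 in the hypoxic ovary and 548 in the normoxic ovary. Its log2 fold change in the authors' deposited table was -2.73, with a counting interval of -3.08 to -2.41. The pair therefore had 9.20-fold (Krt14) and 6.61-fold (Krt5) lower values in hypoxia, and their counting intervals overlap. By the sum of the terms, 1.41% of the listed ovary genes were above Krt14 and 1.52% above Krt5. The third basal keratin of the list used, Krt15, was not listed in either tissue.

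Krt1 was the suprabasal keratin of the ovary list. It had terms of 25 in the hypoxic ovary and 136 in the normoxic ovary, a log2 fold change of -2.51 in the authors' deposited table. Its counting interval ran from -3.25 to -1.93, so it includes values short of the study's threshold of 2. Of the 5 keratins of the ovary list it was the one nearest to the threshold; genes inside the threshold are not in the files, so none just outside it can be given. Krt10, the usual type I partner of Krt1, was not listed. A gene missing from a list may have changed less than the threshold or may have had too few reads, and the tables do not tell these apart.

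Krt6a and Krt16, the type II and type I keratins of stressed epithelium, were both listed in the ovary on few reads. Krt6a had terms of 1 in the hypoxic ovary and 16 in the normoxic ovary, and its log2 fold change in the authors' deposited table was -4.07. Krt16 had terms of 1 in the hypoxic ovary and 10 in the normoxic ovary, and its deposited log2 fold change (the authors' deposited table) was -3.39. By the reading used here, the hypoxic ovary had 0 reads of either gene, against 15 of Krt6a and 9 of Krt16 in the normoxic ovary. With the hypoxic library set at a floor of 3 reads, Krt6a came out 5.25-fold lower and Krt16 3.15-fold lower. The 95% counting intervals, which also take in the error of the normoxic reads, reached down to 3.77-fold lower for Krt6a and 2.07-fold lower for Krt16. If a common factor of 2 had been lost, the reads would be 1 in the hypoxic ovary and 31 in the normoxic ovary for Krt6a, and 1 in the hypoxic ovary and 19 in the normoxic ovary for Krt16. Their larger deposited fold changes than those of Krt5 and Krt14 thus rest, by that reading, on counts of 0 and do not show a larger change. With 5 added to the reads in place of 1, the log2 fold change was -2.07 for Krt6a and -1.56 for Krt16, the second short of the threshold, which 7.73% of the genes in the ovary list passed under that setting. Krt17 and Krt6b, which belong to the same class, were not listed.

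**Figure D2:**
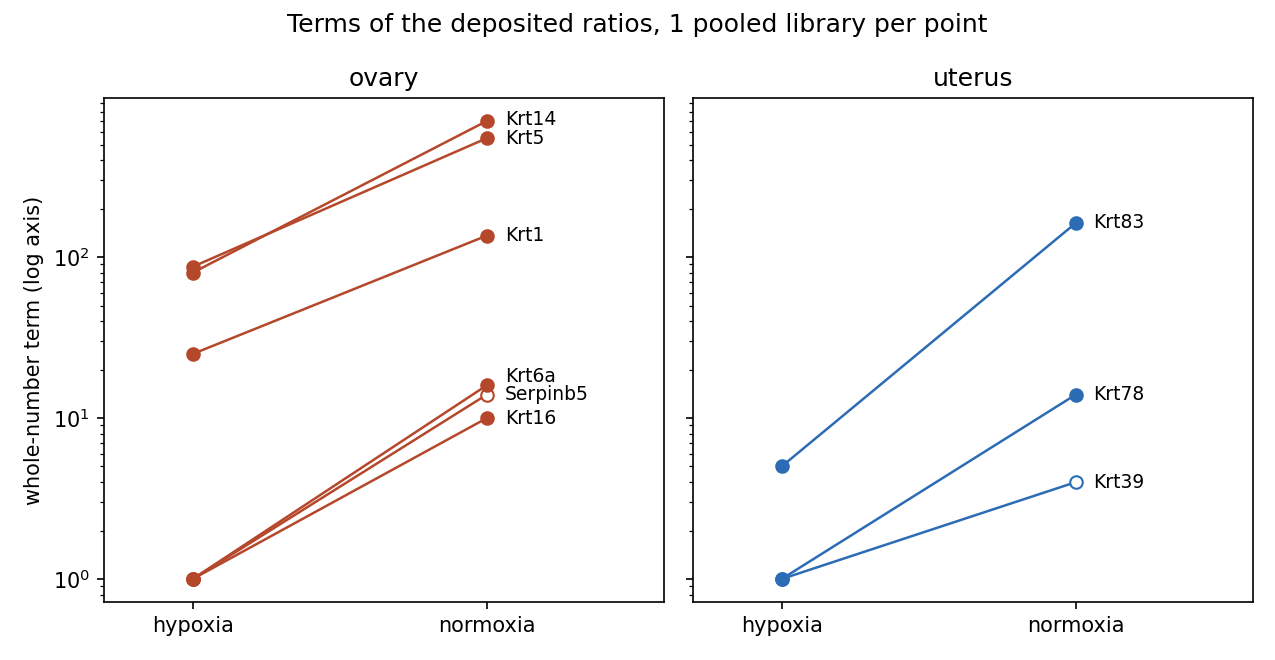
Terms of the deposited ratios on a log axis, hypoxic library on the left and normoxic library on the right, for the ovary and the uterus. Filled points are the 7 keratins, open points Serpinb5 (ovary) and Krt39 (uterus). Each point is 1 pooled library, and every line is lower at its hypoxic end: Krt14 and Krt5 end at 701 and 548 in normoxia, while Krt6a, Krt16 and Krt78 start from a term of 1 in hypoxia.

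Serpinb5, which encodes the serpin maspin of squamous and myoepithelial cells, was listed in the ovary alone. It had terms of 1 in the hypoxic ovary and 14 in the normoxic ovary, and a log2 fold change of -3.88 in the authors' deposited table. With 0 reads in the hypoxic ovary against 13 in the normoxic ovary, it was 4.55-fold lower with the hypoxic library at the floor of 3 reads, and its counting interval reached down to 3.20-fold lower. Its terms were of the size of those of Krt6a and Krt16 and far smaller than those of Krt5 and Krt14; all 5 of the ovary keratins had the same direction.

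In the uterus a hair keratin and a suprabasal keratin were lower in hypoxia, and no basal keratin was listed. Krt83, a type II hair keratin, had terms of 5 in the hypoxic uterus and 163 in the normoxic uterus. Its log2 fold change of -5.03 was the lowest of the 903 values in the authors' deposited table. The counting interval ran from -7.24 to -3.96, on 4 reads in the hypoxic uterus and 162 in the normoxic uterus by the reading used here. Krt78, a type II keratin of the upper layers of stratified epithelium, had terms of 1 in the hypoxic uterus and 14 in the normoxic uterus. Its log2 fold change in the authors' deposited table was -3.81, and with 0 reads in the hypoxic uterus against 13 in the normoxic uterus it was 4.35-fold lower with the hypoxic library at the floor of 3 reads. Its counting interval reached down to 3.06-fold lower. With 5 added to the reads in place of 1, the log2 fold change of Krt78 was -1.85, short of the threshold, which 12.6% of the genes in the uterus list passed under that setting.

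Krt39, a type I hair keratin, was the 1 gene outside the 7 listed under a keratin name, with -2.01 in the authors' deposited uterus table. It rested on terms of 1 in the hypoxic uterus and 4 in the normoxic uterus, and its counting interval reached 1.27 and so included no change.

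**Figure D3:**
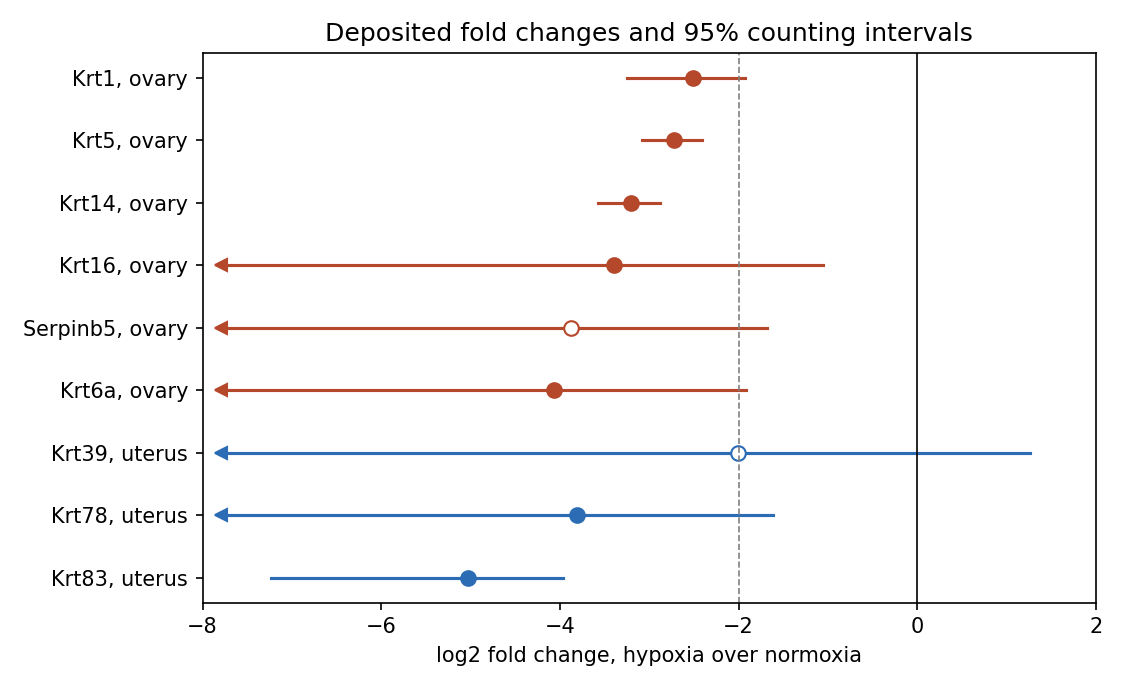
Deposited log2 fold changes, hypoxia over normoxia, of the 7 keratins (filled) and of Serpinb5 and Krt39 (open), ovary in red and uterus in blue. Lines are 95% counting intervals, arrows mark intervals with no lower end because the hypoxic term is 1, and the dashed line is the study's threshold. The interval of Krt39 alone crosses 0, and those of Krt5 and Krt14 are the narrowest.

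Across the family, 53 protein-coding genes are annotated under a keratin name. Of these, 5 were in the ovary list and 3 in the uterus list, all of them lower in hypoxia. For scale, 0.561% of all 21924 annotated protein-coding genes were listed and lower in the ovary, and 0.661% in the uterus. Because the genes were picked from these lists, nothing is read from the contrast of those shares with the keratins. The median log2 fold change was -3.20 over the 5 ovary keratins and -2.39 over all 421 lower ovary genes. Krt83 and Krt78, by the authors' deposited table at -5.03 and -3.81, stood in a uterus table whose 412 lower genes had a median of -2.33. Nothing is read from these medians either, because the members were picked with their values in view. The ovary median of -2.39 is the value given by terms of 1 in hypoxia and 5 in normoxia, as for Fgfbp1.

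All 5 ovary keratins and both uterus keratins had a counting interval that left out a ratio of 1. So did 39.7% of the lower genes of the ovary list and 42% of those of the uterus list, and again nothing is read from this. A smaller term of at least 2, which fixes the size of a ratio better than a term of 1, was found for 3 of the 5 ovary keratins (Krt1, Krt5 and Krt14) and for Krt83 in the uterus. Over all listed genes that share was 27.3% in the ovary and 33.1% in the uterus.

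**Figure D4:**
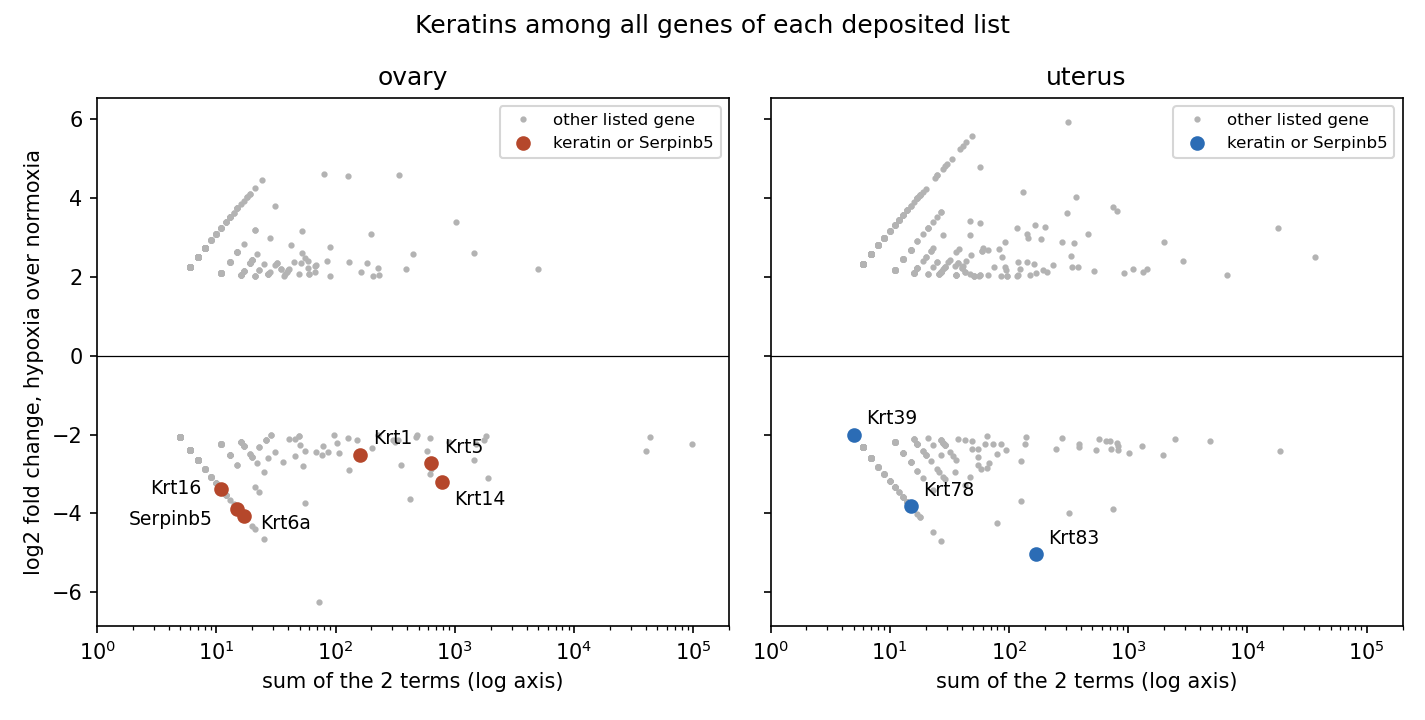
Log2 fold change against the sum of the 2 terms (log axis) for every gene of each deposited list, with the keratins and Serpinb5 in colour. Krt5, Krt14, Krt1 and Krt83 lie to the right, at sums of 635, 781, 161 and 168, while Krt6a, Krt16, Serpinb5 and Krt78 lie on the diagonal edge formed by genes with a hypoxic term of 1.

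By class, the ovary list held 2 of 3 basal keratins, 1 of 12 suprabasal and terminal keratins, 2 of 5 keratins of stress and the hair follicle companion layer, and 0 of 22 hair and inner root sheath keratins. The uterus list held 0 of 3, 1 of 12, 0 of 5 and 2 of 22 of the same classes. The hair class was drawn up with 24 genes, but Krt74 and Krt85 are not among the 53 annotated genes and so are not counted. Neither list held any of the 6 simple epithelial keratins, nor any of the 58 annotated keratin-associated protein genes of hair (0). The listed basal and hair keratins were in different tissues, but only 61 of the 1696 genes in either list were in both. Nothing is read from that split. It rests on 2 genes of each class, and 1 of the hair genes is Krt39, whose counting interval included no change. Whether the fold changes differ between tissues was not tested, since no keratin has a value in both.

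The listed keratins lay in both keratin gene clusters. Type I genes Krt14 (100203162 to 100207548) and Krt16 (100246091 to 100248902) lie on the minus strand of chromosome 11 of GRCm38, the same assembly as the mm10 build named in the submitters' processing notes. Type II genes lie on the minus strand of chromosome 15: Krt83 from 101485130 to 101491512, Krt6a from 101689910 to 101694307, Krt5 from 101707070 to 101712898, Krt1 from 101845426 to 101850794 and Krt78 from 101946001 to 101954287. Serpinb5 lies on the plus strand of chromosome 1, from 106861173 to 106883348. Krt6a and Krt5 are next to each other in the cluster, as are Krt14 and Krt16. The annotation places the antisense gene Gm49428 and the miRNA model Gm44342 over Krt6a, and the miRNA model Gm44323 over Krt5, all on the plus strand. The libraries were directional per the labels' protocols, but no source used here says whether strand was used in counting. The 1 other listed gene within either cluster was Gm49425, a protein-coding model of the type II cluster, which lies between Krt83 and Krt84. It was higher, at 2.72 in the authors' deposited uterus table, with terms of 33 in the hypoxic uterus and 5 in the normoxic uterus. Gm49425 carries no keratin name and is left out of the keratin counts. Whether it encodes a keratin was not tested, so those counts and their shared direction hold only for genes with a keratin name.

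**Figure D5:**
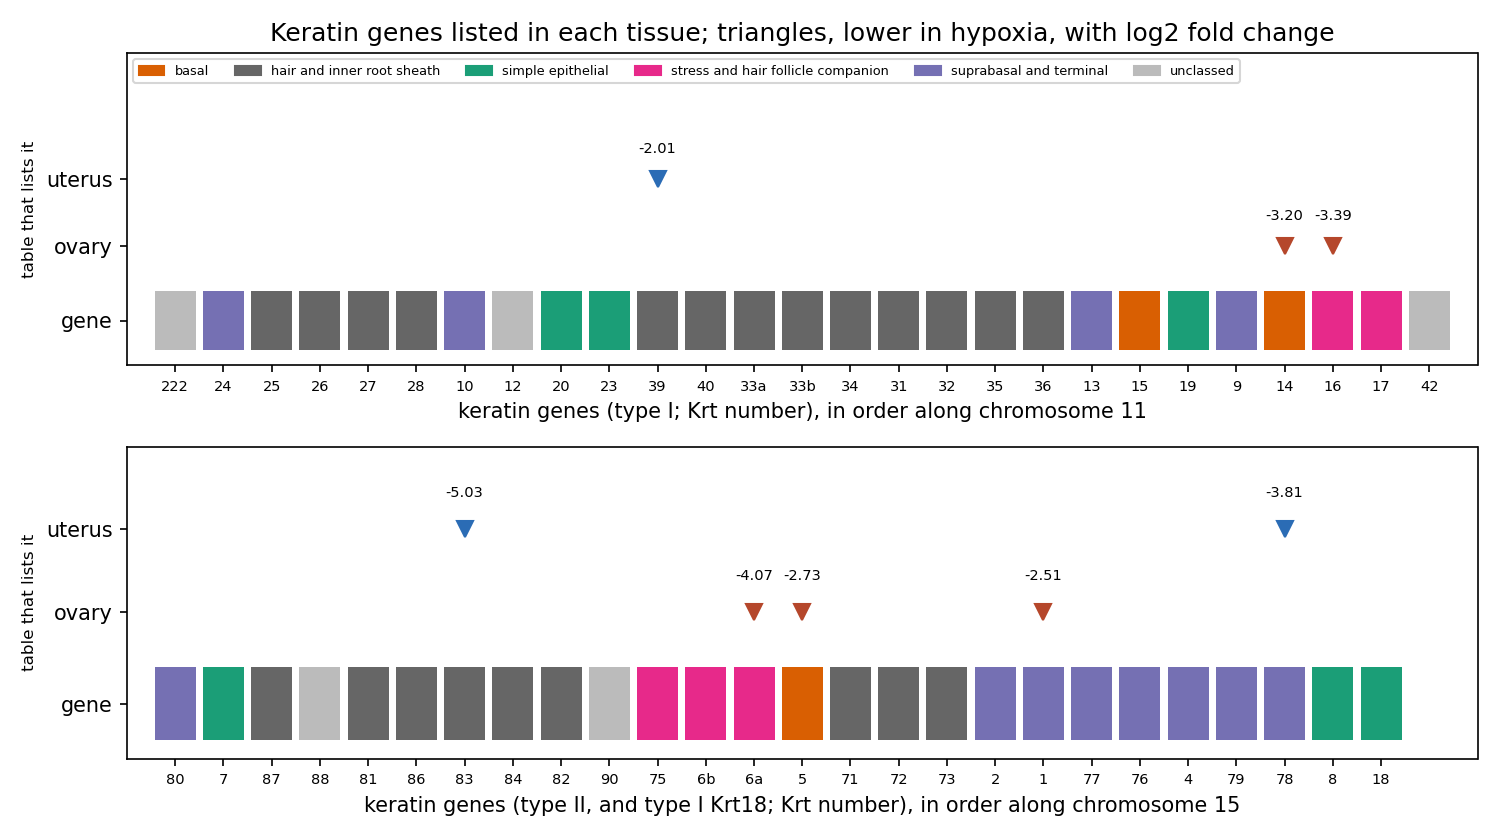
The 53 protein-coding keratin genes in order along chromosomes 11 (type I) and 15 (type II, and the type I gene Krt18), coloured by class. Triangles mark genes in the ovary list (red) or the uterus list (blue), all lower in hypoxia, with the deposited log2 fold change: 5 in the ovary and 3 in the uterus.

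Most members of the squamous and cornified gene lists used here were in neither table. Of 28 squamous epithelium genes, 2 were listed in the ovary, both lower, Serpinb5 and Fgfbp1, which encodes a carrier of fibroblast growth factors. Fgfbp1 was also the 1 gene of that list in the uterus table. Its log2 fold change in the authors' deposited tables was -2.39 in the ovary and -2.01 in the uterus, with terms (hypoxia to normoxia) of 1 to 5 in the ovary and 1 to 4 in the uterus, and both counting intervals included a ratio of 1. Of the 23 names on the cornified envelope list, 22 are in the annotation, and none was listed in the ovary (0). Tgm3, a transglutaminase that cross-links the envelope, was higher in the uterus. Its value was 3.45 in the authors' deposited table, with terms of 11 in hypoxia and 1 in normoxia. That list leaves out the Sprr2 family of envelope proteins, of which the uterus table held 5 genes, 4 of them higher in hypoxia; this family was looked at after its values were seen. The squamous genes Trp63, Sfn, Dsg3, Pkp1 and Krtdap were in neither list. Most genes of each list had a small sum of terms, with a median of 7 in the ovary and 8 in the uterus.

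Markers of other epithelia were looked up beside the keratins. Of 8 mammary epithelium genes, the ovary table held the milk casein genes Csn1s2a and Csn2, both higher. Csn1s2a was at 4.55 in the authors' deposited table, with terms of 123 in the hypoxic ovary and 5 in the normoxic ovary. Csn2 was at 4.10 there (the authors' deposited table), with terms of 18 in the hypoxic ovary and 1 in the normoxic ovary. Of 8 myoepithelium genes, the ovary table held Krt5 and Krt14 and no other, so Acta2, Myh11, Cnn1, Oxtr, Mylk and Krt17 were not listed. None of the 6 urothelium genes was listed in either tissue (0). Of 9 ovarian surface and mesothelium genes, none was listed in the ovary (0), and Lrrn4 was listed in the uterus at -2.53 (the authors' deposited table) from terms of 290 in hypoxia and 1663 in normoxia. Of 9 oviduct epithelium genes, Ccdc153 was higher in the ovary, at 2.51 with terms of 6 in hypoxia and 1 in normoxia, and the axonemal dynein gene Dnah9 was higher in the uterus, at 3.58 with terms of 12 in hypoxia and 1 in normoxia, both in the authors' deposited tables; the counting interval of Ccdc153 included no change. The part of any such cells in the keratin values was not tested, and in pooled tissue fewer cells of a type and less RNA per cell cannot be told apart. The tissue labels could not be checked by levels, since the tables give none: of 12 ovary genes Cyp19a1 alone was in the ovary table, and of 10 uterus genes Ltf alone was in the uterus table, at 3.23 by the authors' deposited table.

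The 5 protein-coding ovary genes nearest to Krt14 in log2 fold change, among 82 with a smaller term of at least 2, were Cyp19a1, Vnn3, Bpifb6, Nlrp12 and Helt. Cyp19a1, the aromatase gene, had -3.11 (the authors' deposited table) from terms of 207 in hypoxia and 1700 in normoxia. Vnn3, which encodes a vanin, had -3.01 in that column of the authors' deposited table, with terms of 71 in hypoxia and 546 in normoxia. Likeness here is the distance between 1 value per gene, from 0.09 for Cyp19a1 to 0.43 for Helt on the log2 scale.

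Promoter windows from RefSeq (GRCm38.p6, 250 bases before to 50 after a gene's start) were found for 4 of the 8 genes, Krt5, Krt14, Krt78 and Serpinb5. The Krt14 row starts 1518 bases inside the GENCODE transcript and is not shown. The windows of Krt5 and Serpinb5, which were both lower in the hypoxic ovary, are printed with matches to the AP-1 motif TGANTCA or the TATA motif TATAAA, on either strand, in capitals. They lie at chr15:101712856-101713155 on the minus strand for Krt5 and chr1:106860925-106861224 on the plus strand for Serpinb5.
Krt5: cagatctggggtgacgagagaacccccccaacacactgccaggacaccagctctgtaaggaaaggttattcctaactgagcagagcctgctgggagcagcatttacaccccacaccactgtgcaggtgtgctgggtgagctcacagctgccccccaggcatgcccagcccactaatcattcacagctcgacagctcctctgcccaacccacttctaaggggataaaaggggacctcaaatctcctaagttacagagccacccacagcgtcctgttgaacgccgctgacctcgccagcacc
Serpinb5: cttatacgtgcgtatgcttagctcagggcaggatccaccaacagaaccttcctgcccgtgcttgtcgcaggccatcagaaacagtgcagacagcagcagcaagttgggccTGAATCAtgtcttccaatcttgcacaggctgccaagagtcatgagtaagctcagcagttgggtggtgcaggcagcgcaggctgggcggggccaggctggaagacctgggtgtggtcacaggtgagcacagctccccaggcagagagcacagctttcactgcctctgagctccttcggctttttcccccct

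Serpinb5 had 1 AP-1 match, and Krt5 and Krt78 had 0. None of the 3 held the exact string TATAAA (0). Looser TATA-like strings were not searched for, so a TATA box is not shown to be absent. Of the 32851 RefSeq windows, 7.81% held the AP-1 motif and 13.6% the TATA motif.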

How the data were processed

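RNA of 1 pooled library per group was sequenced in 4 groups. The mm10 build, DESeq2 2.11.40.7, HTSeq 0.9.1, HISAT2 2.2.1 and FastQC 0.73 are listed, with no roles, per the submitters' processing notes. Per the file headers, the deposited values are log2 fold changes; the lists hold genes with an absolute value of at least 2, with no counts, p-values or depth. Terms were recovered by continued fractions after division by the tissue's shared factor (0.952 in the ovary, 0.995 in the uterus), with every ratio within a relative tolerance of 5e-14. The most frequent lower value was read as 1 to 4, with a median sum of terms of 7 in the ovary and 8 in the uterus; read as 1 to 3 it was 22.5 and 23, and as 1 to 5 it was 29 in both. No source fixes this choice, and every term, read count and interval rests on it. The step was tested on simulated data built from counts plus 1 and a shared factor. That test checks recovery of the terms where this reading holds, and cannot show that it holds for the deposited values. Each group has 1 library, so no condition was tested. The members, gene lists and alternatives were chosen with earlier results of these data known. Named were the 7 keratins, Serpinb5, other listed keratins, listed members of the gene lists, and the 5 genes nearest to Krt14. Gene positions, coding sequence and transcripts came from GENCODE M21 (GRCm38). Protein identity was planned but no protein table was used here, so coding bases were compared. Python 3.11.15, NumPy 2.4.6, pandas 2.3.3 and SciPy 1.17.1 were used.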

Additional observations from a re-analysis of the deposited data

How the results depend on the processing

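Each of the 7 log2 fold changes stayed negative and within its counting interval with a pseudocount of 5 and without the shared factor. So did the 4 with reads in both libraries when the terms less 1 were used as they are. None of these settings could change the sign, because the hypoxic count stays the smaller and the shared factor is below 1 in both tissues. Leaving out that factor moved values little, as for Krt14 from -3.20 to -3.13. The intervals were computed from the terms less 1, so values from those terms had to fall inside. The intervals of Krt6a, Krt16 and Krt78 have no lower end, so only their upper end could be crossed. Under the pseudocount of 5, Krt14 had -3.14, Krt5 -2.67, Krt1 -2.34, Krt6a -2.07 and Krt16 -1.56 in the ovary, and Krt83 had -4.22 and Krt78 -1.85 in the uterus, so Krt16 and Krt78 no longer passed the threshold of 2. Of all listed genes, 7.73% in the ovary and 12.6% in the uterus passed it under that setting. The count of members whose interval left out a ratio of 1 stayed at 5 in the ovary and 2 in the uterus with terms as counts, with terms doubled, with 99% intervals and, as an alternative added after seeing the data, with the most frequent lower value read as 1 to 3 or 1 to 5. The terms themselves moved under those readings, and the interval ends nearest to no change moved both ways. For Krt16 that end was 2.07-fold lower as kept, then 2.98-fold (1 to 3) or 3.29-fold (1 to 5). For Krt78 it was 3.06-fold, then 4.29-fold or 4.58-fold. For Krt1 it was 3.81-fold, then 3.75-fold or 2.47-fold. In the same order it was 5.31, 4.50 and 5.33 for Krt5 and 7.37, 8.20 and 7.21 for Krt14. It was 3.77, 3.51 and 3.92 for Krt6a and 15.6, 21.8 and 14.6 for Krt83. Doubling the terms adds reads at nearly the same ratio, so that setting could hardly lower the count of members. With the threshold raised to 3, the ovary list held 3 keratins and the uterus list 2, and the squamous and cornified lists had 1 listed gene in each tissue, against 2 in each at the study's threshold. With a smaller term of at least 2, the ovary list held 3 keratins and the uterus list 1, and the squamous and cornified lists had 0 in each tissue. These counts are smaller because fewer genes pass. No paired analysis was possible because each group is 1 pooled library, and no replicate could be left out. Depth is unknown, and the terms may have lost a common factor.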

Other observations

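These values were chosen after they were seen. In the uterus, 2 genes of the Tmprss11 family of epithelial serine proteases were also lower in hypoxia. Tmprss11g was at -3.89 by the authors' deposited table, with terms of 47 in the hypoxic uterus and 694 in the normoxic uterus, and Tmprss11b was at -3.12 by the authors' deposited table, with terms of 3 in the hypoxic uterus and 26 in the normoxic uterus. Genes of the Sprr2 family, whose products are cross-linked into the cornified envelope, lay mostly the other way, 4 of 5 listed genes higher. Sprr2g was higher at 3.77 by the authors' deposited table, with terms of 701 in hypoxia and 51 in normoxia, and Sprr2a3 was higher at 2.50 by the authors' deposited table, with terms of 17 in hypoxia and 3 in normoxia. No gene of either family was in the ovary list.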
